A study of Rattus norvegicus with 2 samples.

Results

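Stearoyl-CoA desaturases, polyunsaturated fatty acid desaturases and fatty acid elongases were followed in liver RNA of male Wistar rats, 22 weeks old, with a chronic alcoholic fatty liver. The members were all probes whose deposited gene symbol was Scd1, Scd, Scd2, Fads1, Fads2, Elovl1, Elovl2, Elovl5 or Elovl6, and 13 of 41012 probes met this rule, for 8 genes. All 8 genes had a probe with the detection letter P on both arrays, so that none was lost to a filter on low signals. The deposited table writes Scd1 for the gene that RefSeq now calls Scd, and Scd for the gene now called Scd2, and the current names are used below.

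The EEP group had received EEP, so abbreviated in the labels of a series whose title speaks of propolis extracts, in a 50% ethanol solution at 0.1% of body weight for 4 weeks. The saline group had received normal saline at the same dose and for the same time. For 7 weeks before that, all rats had been given alcohol of 52% at 1% of body weight. The labels do not settle whether alcohol went on during the later treatment. Only the EEP was given in ethanol, so that EEP and its solvent cannot be told apart. RNA of 6 animals per group was pooled before labelling and each pool was read on 1 one-colour Agilent array, so that every comparison is between 2 arrays, has no replicate check and carries no p-value. Signals are the authors' normalized log2 values, and every difference is the log2 signal of the EEP pool minus that of the saline pool.

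Newly made saturated fatty acids and those of the diet are reshaped in the endoplasmic reticulum of the liver cell by these enzymes. Stearoyl-CoA desaturases place the first double bond in palmitoyl- and stearoyl-CoA and so supply the monounsaturated fatty acids of triglycerides and cholesteryl esters. Fads1 and Fads2 add further double bonds to polyunsaturated fatty acids, elongases catalyse the condensation step that lengthens the chain, and cytochrome b5 with its reductase passes electrons to the desaturases. In the liver the genes are known targets of insulin, the sterol regulatory factor SREBP-1c, the liver X receptor and PPAR-alpha.

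The stearoyl-CoA desaturase gene Scd was far lower in the EEP pool than in the saline pool, and Scd2 was far lower by 1 of its 3 probes but higher by another. The polyunsaturated desaturase genes Fads1 and Fads2 and the elongase genes Elovl1, Elovl2 and Elovl6 were all moderately higher, and the elongase gene Elovl5 was moderately lower. Read by the brightest detected probe of each gene, 1 of the 8 genes was at least 2-fold higher in the EEP pool (Fads2), against 3.58% of all 11915 genes with a detected probe and 1.75% of the 10976 genes detected on both arrays. At least 2-fold lower were 2 of the 8 (Scd and Scd2), against 5.09% and 2.69% of the same genes. At 1.5-fold, 4 of the 8 were higher, against 8.08% of the 11915 genes, and 3 were lower, against 10.2%. With 50 signal units added to both pools, Elovl6 (0.49) and Elovl5 (-0.45) fell short of 1.5-fold. With the next-brightest probe where a gene had a second one detected on both arrays, 2 were at least 2-fold higher and 1 was at least 2-fold lower, since the call of Scd2 was lost and that of Elovl6 gained. The median difference of the 8 genes was 0.58, and 0.69 without Scd and Scd2, against 0.02 over all genes.

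**Figure D1:**
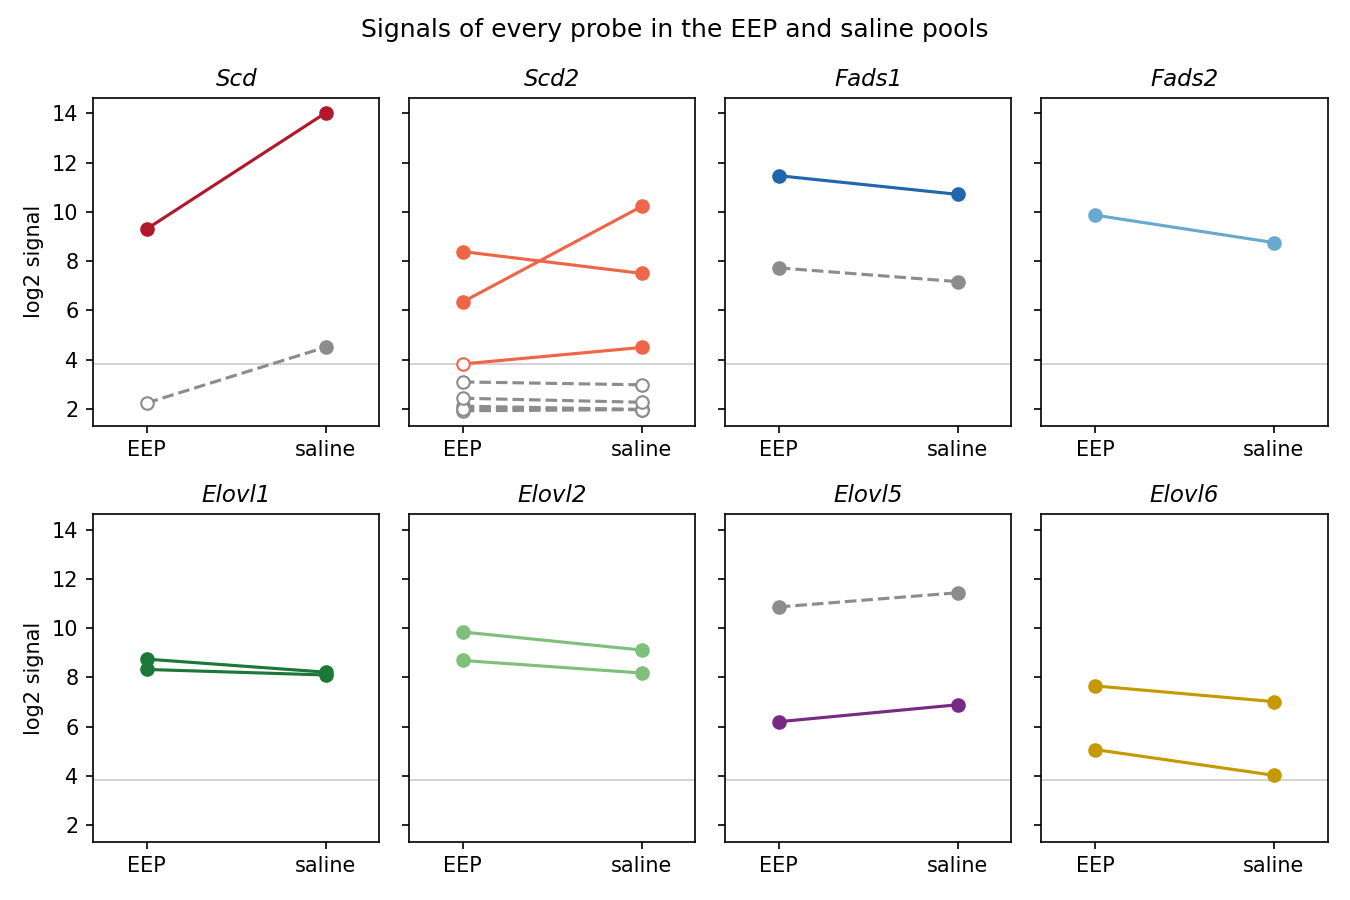
Log2 signal (vertical axis) of every probe of the 8 genes in the EEP and saline pools; coloured lines are probes named in the deposited table, dashed grey lines are probes without a symbol in the same sequence cluster, filled points were detected, open points were not, and the grey horizontal line is the lowest detected signal of an array (3.83). Scd is at 9.31 in the EEP pool against 14.02 in the saline pool, and the lines of Scd2 cross.

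Promoters are shown for Scd, which had the largest difference, for Scd2, whose probes disagreed, and for the adjacent Fads pair, in which both genes were higher. Each run gives 250 bases before and 50 bases from the start that RefSeq lists in the assembly GRCr8, on the strand of the gene, with matches to any of 5 motifs in capitals. Scd lies at chr1:253231682-253231981 on the minus strand, Scd2 at chr1:253118127-253118426 on the plus strand, Fads1 at chr1:216252442-216252741 on the plus strand and Fads2 at chr1:216171984-216172283 on the minus strand.
Scd: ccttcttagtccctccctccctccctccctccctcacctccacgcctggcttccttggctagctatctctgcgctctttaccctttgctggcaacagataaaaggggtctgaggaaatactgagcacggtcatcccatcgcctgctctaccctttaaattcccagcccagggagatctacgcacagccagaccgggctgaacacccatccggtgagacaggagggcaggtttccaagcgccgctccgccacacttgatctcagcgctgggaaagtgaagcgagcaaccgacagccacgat
Scd2: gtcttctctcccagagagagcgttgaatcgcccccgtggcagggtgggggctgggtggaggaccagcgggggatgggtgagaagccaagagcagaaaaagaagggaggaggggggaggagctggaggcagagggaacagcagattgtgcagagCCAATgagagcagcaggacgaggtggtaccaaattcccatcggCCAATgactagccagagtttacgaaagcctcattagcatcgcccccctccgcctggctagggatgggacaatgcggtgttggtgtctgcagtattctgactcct
Fads1: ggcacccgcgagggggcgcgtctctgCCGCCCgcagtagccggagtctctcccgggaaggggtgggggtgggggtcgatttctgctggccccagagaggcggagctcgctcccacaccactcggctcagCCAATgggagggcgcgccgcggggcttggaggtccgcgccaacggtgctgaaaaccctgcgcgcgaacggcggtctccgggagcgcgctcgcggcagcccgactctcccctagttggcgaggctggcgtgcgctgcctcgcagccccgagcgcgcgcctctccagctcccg
Fads2: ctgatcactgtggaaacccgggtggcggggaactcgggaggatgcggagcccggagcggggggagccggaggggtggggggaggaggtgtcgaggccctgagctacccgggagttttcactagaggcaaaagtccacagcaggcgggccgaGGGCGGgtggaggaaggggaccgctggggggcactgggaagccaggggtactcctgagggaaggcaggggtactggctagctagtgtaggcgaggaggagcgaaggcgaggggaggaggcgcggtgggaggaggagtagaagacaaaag

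The motifs were searched on both strands: CCAAT, which NF-Y binds, TCACNCCAC for SREBP, the E-box CACGTG, the GC box GGGCGG and TTCNNNGAA for STAT factors. Scd2 held CCAAT at 97 and at 54 bases before the start, and 11.2% of the 33469 RefSeq promoters held it at least 2 times. None of the motifs was found in the Scd window, whose letters alone this describes. Fads1 held CCAAT once, 121 bases before the start, as did 37.5% of promoters at least once, and a GC box on the opposite strand, and Fads2 held a GC box 99 bases before the start, a motif present in 33.1% of promoters. The Elovl5 window held CCAAT on its opposite strand at 122 and 68 bases before the start and an E-box at 212 bases, which 6.42% of promoters hold. Elovl2, with 2 listed starts, held only GC boxes, 7 in 1 window and 1 in the other. G and C made up 84.7% and 78.3% of these windows, against a median of 51.7% over all promoters. Elovl1 held none of the motifs. TCACNCCAC, present in 1.12% of promoters, and TTCNNNGAA, present in 8.87%, were in no window of the 7 genes searched. Elovl6 had no listed promoter and was not searched.

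Scd encodes the main stearoyl-CoA desaturase of rodent liver. Its single named probe, on chromosome 1 from 249459057 to 249459116 by the deposited positions (genome build not given in the sources used here), had a log2 signal of 9.31 in the EEP pool, against 14.02 in the saline pool. The signal was 26.3-fold lower in the EEP pool (log2 difference -4.71) and was detected on both arrays, so the difference does not rest on a value at the detection limit. Among the 23054 probes detected on both arrays it had the difference that was 3rd from the lowest, and among the 5024 of these with a mean log2 signal of at least 10 no probe lay lower. At that signal level 1.09% of probes were at least 2-fold lower in the EEP pool. A further probe, without a symbol, belongs to the same UniGene cluster, and it was not detected in the EEP pool (2.24), against a detected signal of 4.50 in the saline pool. Set against the lowest detected value of the EEP array it was at least 1.59-fold lower, a bound that says little about the size because the saline signal was near the detection limit too.

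**Figure D2:**
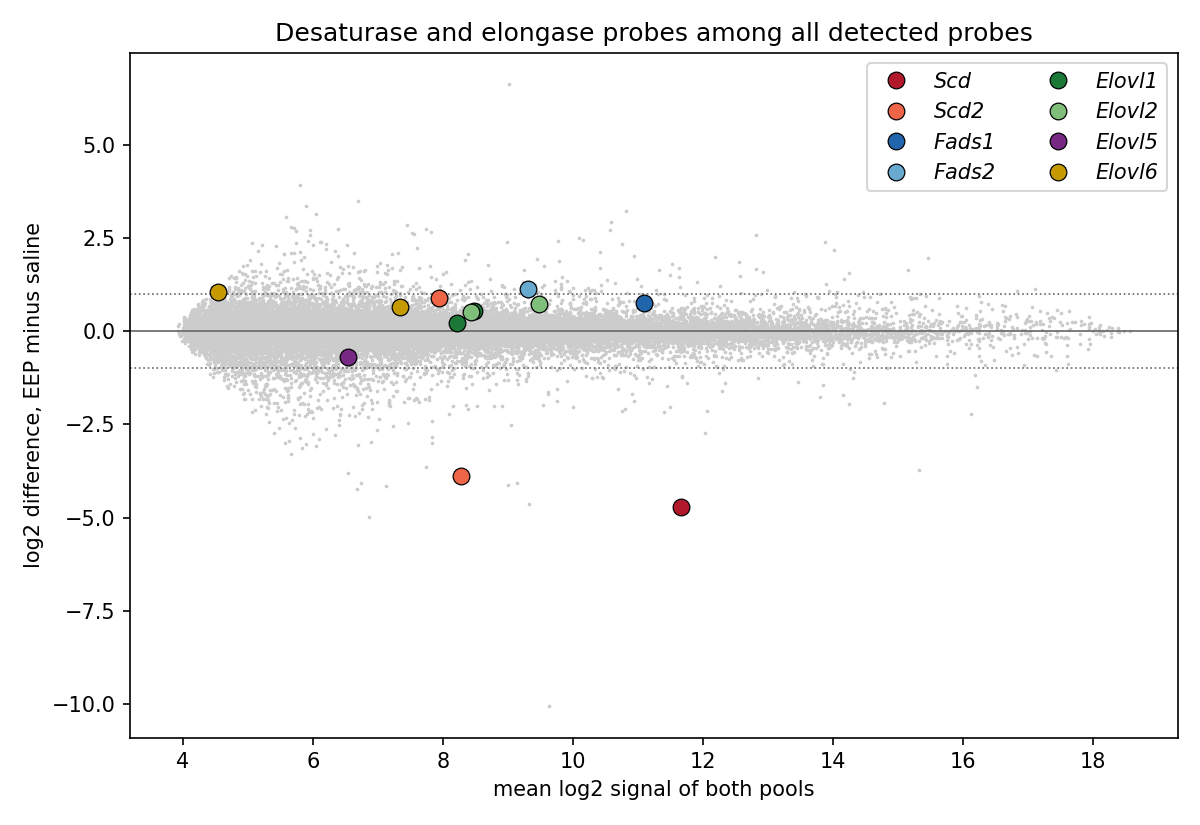
Log2 difference of EEP minus saline (vertical axis) against the mean log2 signal of both pools (horizontal axis) for probes detected on both arrays; grey points are all 23054 probes, coloured points are the 12 desaturase and elongase probes among them, and dotted lines mark 2-fold. Scd and 1 Scd2 probe lie below nearly all others, while most other coloured points lie between 0 and the upper dotted line.

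Scd2, a second stearoyl-CoA desaturase best known from rodent brain, lies in the same gene cluster as Scd on chromosome 1 and was read by 3 probes that disagreed. The probe from 249365537 to 249365596 had a log2 signal of 6.34 in the EEP pool, against 10.22 in the saline pool, and was 14.7-fold lower in the EEP pool (log2 difference -3.88). The probe from 249370837 to 249370896, 5300 bases further along the plus strand, had 8.39 in the EEP pool, against 7.50 in the saline pool, and was 1.85-fold higher in the EEP pool (0.89). Between them, 3624 bases from the first, the probe from 249369161 to 249369220 was not detected in the EEP pool (3.82) and was detected in the saline pool at 4.49, near the detection limit, which bounds it at 1.58-fold or more lower. Of the pair detected on both arrays, the first thus differed in the direction of Scd, by 0.83 log2 units less, and the last in the direction of the other desaturases.

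**Figure D3:**
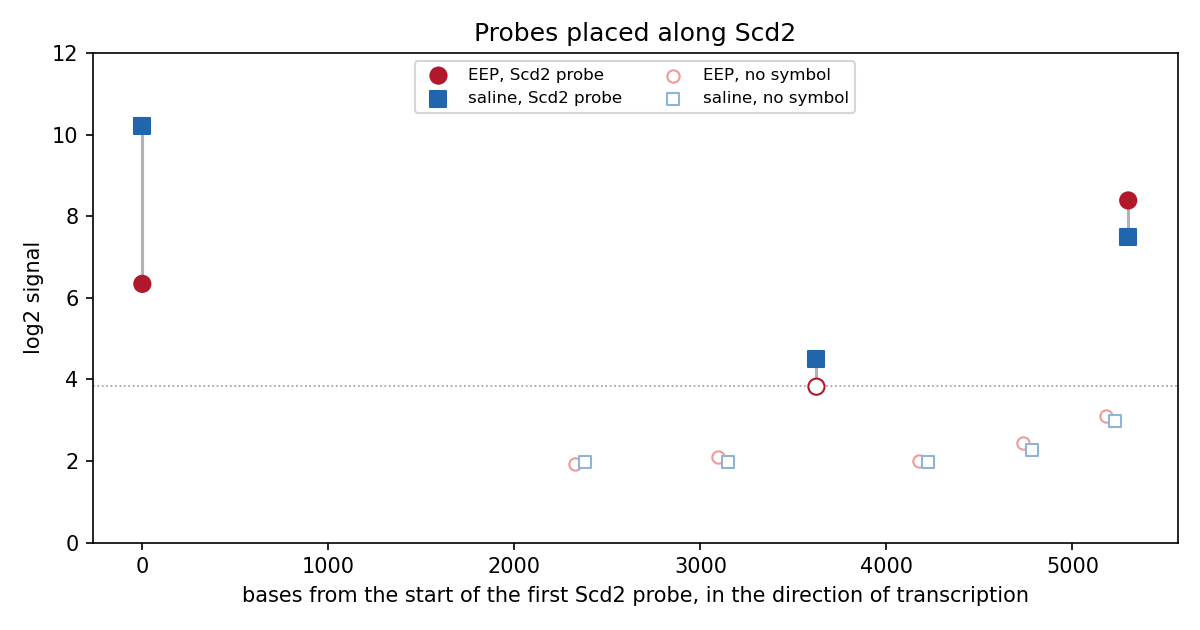
Log2 signal (vertical axis) of the probes placed along Scd2 against the distance in bases from the start of its first probe (horizontal axis); red circles are the EEP pool, blue squares the saline pool, large symbols the 3 named probes, small pale symbols 5 probes without a symbol in the same cluster, open symbols were not detected, and the dotted line is the lowest detected signal. The first probe is lower in the EEP pool (6.34 against 10.22), the last is higher (8.39 against 7.50), and none of the small symbols reaches the line.

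The 4.77 log2 units between the Scd2 probes detected on both arrays were wider than the range of any other gene so read. Over the 2596 genes that had 2 or more probes with P on both arrays, the median range of the differences was 0.18, 75 genes (2.89%) had a range of at least 1, and the next widest after Scd2 was 3.53. All 3 probes are assigned to the same Scd2 mRNA in the deposited table, the 2 nearer the start of the gene to 1 TIGR sequence cluster and the last to another. A further 5 probes without a symbol share the UniGene cluster of Scd2 and lie on the minus strand, opposite to the gene. They were detected on neither array, at 1.92 to 3.09 in the EEP pool and 1.97 to 2.98 in the saline pool. Probe sequences were not used here, so whether the low probe also binds Scd RNA, or whether the probes read different forms of the Scd2 transcript, was not tested, and no direction is given for Scd2 as a gene.

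**Figure D4:**
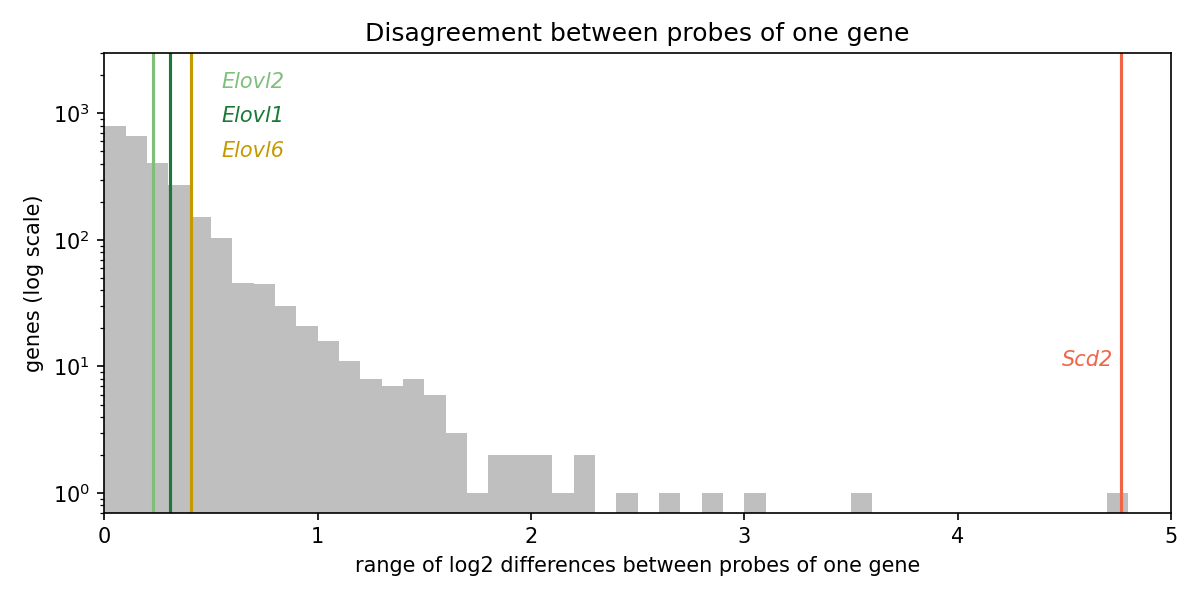
Number of genes (vertical axis, log scale) by the range of the log2 differences between their probes (horizontal axis), over the 2596 genes that had 2 or more probes with P on both arrays; vertical lines mark Elovl2 (0.23), Elovl1 (0.31), Elovl6 (0.41) and Scd2 (4.77). The elongase genes lie within the bulk of genes and Scd2 lies alone at the right.

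Fads2 encodes the desaturase that starts the conversion of linoleic and linolenic acid into longer polyunsaturated fatty acids. Its probe had 9.87 in the EEP pool, against 8.75 in the saline pool, and was 2.17-fold higher in the EEP pool (1.12). Fads1, whose product acts later on the same route, had 11.47 in the EEP pool, against 10.71 in the saline pool, 1.69-fold higher (0.76). A probe without a symbol in the Fads1 cluster, listed on the strand opposite to Fads1, had 7.72 in the EEP pool, against 7.17 in the saline pool (0.56). Both genes therefore lay in the same direction, opposite to Scd, and 1.31% of the genes detected on both arrays had a larger difference than Fads2 and 3.19% a larger one than Fads1.

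For the elongases the probes of each gene agreed in direction. Elovl6 encodes the elongase that lengthens palmitate to stearate, the substrate of Scd. Its brighter probe had 7.65 in the EEP pool, against 7.01 in the saline pool (0.64), and its dimmer probe 5.07 in the EEP pool, against 4.02 in the saline pool (1.05). The saline signal of that dimmer probe was close to the lowest detected value of 3.83, and with 50 signal units added to both pools its difference was 0.34. Elovl6 was thus higher in the pool in which Scd was lower, by 1.56-fold and 2.07-fold for the 2 probes. Elovl2, which lengthens polyunsaturated fatty acids of longer chains, had 9.84 in the EEP pool, against 9.11 in the saline pool by its brighter probe (0.73). By the other Elovl2 probe the signals were 8.68 in the EEP pool and 8.18 in the saline pool (0.51). Elovl1, an elongase of saturated very long chains, had 8.74 in the EEP pool, against 8.21 in the saline pool by its brighter probe (0.53). Its other probe showed a smaller difference, with 8.32 in the EEP pool and 8.10 in the saline pool (0.22).

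Elovl5, which lengthens polyunsaturated fatty acids between the steps of Fads2 and Fads1, lay in the other direction from Elovl1, Elovl2 and Elovl6. Its named probe had 6.20 in the EEP pool, against 6.89 in the saline pool, 1.61-fold lower (-0.69). A probe without a symbol shares both its UniGene and its TIGR cluster and lies on the same strand. That probe had 10.86 in the EEP pool, against 11.44 in the saline pool, 1.49-fold lower (-0.57), so that both readings lay below 0. The genes of the route from linoleic acid thus did not lie on one side of 0, with Fads2, Fads1 and Elovl2 higher and Elovl5 lower in the EEP pool.

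The only spread available is that between probes of one gene on the same 2 arrays. The robust SD of the difference read by 1 probe was 0.31 log2 units at a mean log2 signal under 6, 0.19 from 6 to 8, 0.15 from 8 to 10 and 0.12 from 10 to 12. Differences were 39.2 times this spread for Scd, 7.66 times for Fads2, 6.30 times for Fads1, 5.04 times for the brighter probe of Elovl2 and 3.54 times for the named probe of Elovl5. The smallest was the dimmer probe of Elovl1, at 1.54 times. This spread leaves out the variation between animals and between pools, so a multiple of it is no test of the treatments.

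Of 8 other desaturase and elongase genes listed, 6 were read, 3 above and 3 below 0, with a median of 0.0037. Elovl4, an elongase of very long chains known from retina and skin, was not detected in the EEP pool (1.84) and had 6.12 in the saline pool, at least 4.90-fold lower. Elovl7 was not detected in the EEP pool (2.83) and had 4.22 in the saline pool, at least 1.31-fold lower. Scd3, another desaturase gene of the same locus that was picked after its value was seen, had 6.57 in the EEP pool and 6.13 in the saline pool (0.44), so that it did not share the direction of Scd.

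The enzymes that complete the elongation cycle lay close to 0. Of 7 listed genes 4 were read, all within 0.14 below 0, with Hsd17b12, the ketoacyl-CoA reductase, at -0.14, and Hacd4, a dehydratase family member detected in the saline pool only, at least 1.05-fold lower. Of the 7 genes of electron supply 6 were read, 5 of them above 0, against 52.4% of all genes, with a median of 0.12. None was at least 1.5-fold apart, where 8.08% of all genes were higher and 10.2% lower by that much. Cyb5a, the cytochrome b5 that feeds the desaturases, had 15.47 in the EEP pool and 15.02 in the saline pool (0.46), and Por, the P450 oxidoreductase, had 11.32 in the EEP pool and 11.86 in the saline pool (-0.54).

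Genes that make palmitate, which Elovl6 lengthens and stearoyl-CoA desaturases act on as palmitoyl-CoA, lay on both sides of 0. Of 12 genes read out of 13 listed, 4 were at least 1.5-fold lower in the EEP pool, against 10.2% of all genes, and 2 at least 1.5-fold higher, against 8.08% of all genes, with a median of -0.12. Thrsp, a lipogenic protein of the liver, had 11.49 in the EEP pool and 13.09 in the saline pool (-1.60). Fasn, the fatty acid synthase, had 11.05 in the EEP pool and 12.29 in the saline pool (-1.23). Acaca, the acetyl-CoA carboxylase, had 11.57 in the EEP pool and 12.38 in the saline pool (-0.82). The NADPH-supplying genes Me1 (0.78) and Idh1 (0.68) were higher in the EEP pool.

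Regulators of the desaturase genes lay close to 0 for the most part. Of 15 read out of 17 listed, 7 lay above and 8 below 0, with a median of -0.09, and 1 was at least 1.5-fold lower, a share no higher than the 10.2% of all genes. That gene was Insig1, which holds SREBP proteins in the endoplasmic reticulum and is itself an SREBP target, with 13.28 in the EEP pool and 14.06 in the saline pool, and its 4 probes ranged from -0.77 to -0.63. Ppara had 9.25 in the EEP pool and 9.23 in the saline pool (0.03). No probe carried the symbol Srebf1, the gene of SREBP-1c.

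Genes that use the products were read as well. Of 16 acyl-CoA and lipid assembly genes read out of 20 listed, 8 lay on each side of 0, with a median of 0.04. Agpat3, an acyltransferase of phosphatidic acid synthesis, had 11.30 in the EEP pool and 12.14 in the saline pool (-0.84, and -0.49 by a second probe). Lpin1, a phosphatidate phosphatase, differed by -0.66. Of 9 peroxisomal chain-shortening genes read out of 11 listed, 7 lay above 0, against 52.4% of all genes, with a median of 0.34. Acaa1b, a peroxisomal thiolase, had 16.45 in the EEP pool and 14.49 in the saline pool (1.96), and Ehhadh, the bifunctional enzyme, had 13.30 in the EEP pool and 11.84 in the saline pool (1.47).

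**Figure D5:**
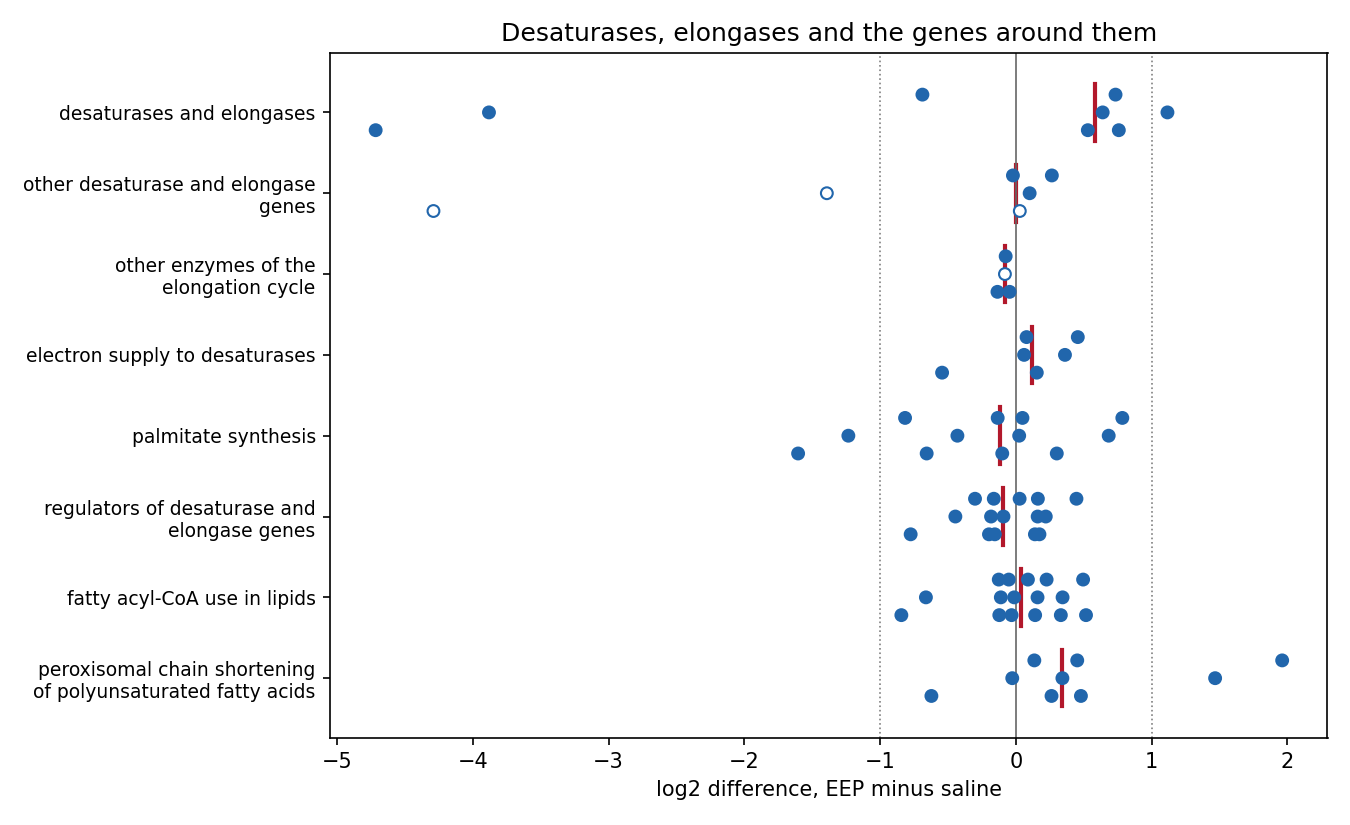
Log2 difference of EEP minus saline (horizontal axis) of each gene, by list (vertical axis); points are genes read by their brightest detected probe, open points were detected on 1 array only, red bars are list medians and dotted lines mark 2-fold. Open points are drawn at the plain log2 difference, not at the bound given in the text. Elovl4 is thus drawn at -4.29 and Elovl7 at -1.39, where the bounds are -2.29 and -0.39. Most lists are centred near 0. Of the desaturases and elongases, Scd and the brightest Scd2 probe lie at the left and most others at the right of 0. Another Scd2 probe, not drawn here, was higher in the EEP pool (0.89).

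Hepatocyte markers were bright on both arrays, with a log2 summed signal of 20.61 in either pool and a median difference of -0.06 over 9 genes. Over all 11915 genes with a detected probe, 6245 lay above and 5654 below 0, beside which the counts of these small lists stand. Of the Kupffer cell and macrophage markers 7 of 8 lay below 0, with a log2 summed signal of 15.19 in the EEP pool and 15.73 in the saline pool. That sum is mostly Clec4f (14.90 in the EEP pool, 15.44 in the saline pool). The median difference of the list was -0.69, and 5 of the 8 were at least 1.5-fold lower, against 10.2% of all genes. Erythroid markers were lower in all 3 genes read of 4 listed (11.41 in the EEP pool, 12.32 in the saline pool). Lymphocyte markers were lower in all 3 genes read of 5 listed (9.26 in the EEP pool, 9.94 in the saline pool), and endothelial markers in 5 of 6 (14.28 in the EEP pool, 14.30 in the saline pool). The endothelial sum is mostly Kdr (14.04 in the EEP pool, 13.94 in the saline pool). The median endothelial difference was -0.51, and 3 of the 6 were at least 1.5-fold lower, against 10.2% of all genes. Stellate cell markers lay above 0 in 4 of 7 (12.60 in the EEP pool, 12.48 in the saline pool), and cholangiocyte markers below 0 in 2 of 3 read of 5 listed (8.51 in the EEP pool, 8.36 in the saline pool). The cholangiocyte sum is mostly Epcam (8.28 in the EEP pool, 7.60 in the saline pool), while the median difference of that list was -0.66. The part of these cell types in the differences of Scd, Scd2 and the other members was not tested, and in pooled tissue fewer cells of a type and less RNA per cell cannot be told apart. Scd is abundant in adipocytes too, and of 7 adipocyte markers Adipoq, Plin1, Lep, Retn and Fabp4 were detected on neither array, and Cfd (-0.15) and Cidec (-0.36) were read.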

How the data were processed

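Per the submitters' processing notes, Agilent Feature Extraction 9.5 read the scans of the Cy3-labelled liver RNA. The authors deposited log2 signals of 41012 probes per array, already normalized, the method being not given in the sources used here (sorted columns differ by at most 0.0255), so the planned scaling to the 75th percentile moved nothing. The linear fold ratio deposited by the authors equals 2 to the power of EEP minus saline and was used only for that check. The letter P, found on 24380 probes of the EEP and 24344 of the saline array, was taken as detected; a rounded series matrix held the 23054 probes with P on both.

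Symbols were updated through Entrez IDs to RefSeq names of GRCr8 (20959 of 21871 probes matched). The brightest probe with P on at least 1 array stood for a gene. A probe with P on 1 array got a bound, set against its dim signal or, if higher, the lowest signal with P on that array. The spread between probes was 1.4826 times the median absolute gap between the brightest and next probe, divided by the root of 2; it was tested on simulated data. The members, lists, motifs and rules were chosen with earlier results of these data known. Named were all members and, per list, genes at least 1.5-fold apart or else the 2 furthest from 0, plus Fasn, Acaca and Ppara. Some genes that this rule names are not reported here. Alternatives covered centring, quantile and loess (span 0.3) normalization, detection filters, probe choice, bounds, thresholds and 50 signal units added. Protein identity was planned and not computed. Python 3.11.15, numpy 2.4.6, pandas 2.3.3 and statsmodels 0.14.6 were used. The number of arrays limits the precision.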

Additional observations from a re-analysis of the deposited data

How the results depend on the processing

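With 1 array per group no alternative carries a test. Centring, 75th percentile scaling, quantile and loess normalization and the series matrix moved no member gene by more than the spread between probes. The choice of probe mattered for Scd2: its difference was -1.22 as the mean and -0.67 as the median of its detected probes, and it reversed to 0.89 with the next-brightest probe detected on both arrays, a setting added after seeing the data. Members at least 2-fold lower then numbered 1 with the median probe and 1 with the next-brightest, in place of 2, and members at least 2-fold higher 2 with the next-brightest (Elovl6 beside Fads2), in place of 1. At 1.5-fold 4 members were higher (Fads1, Fads2, Elovl2 and Elovl6), and 3 lower (Scd, Scd2 and Elovl5); at 3-fold 0 were higher and 2 lower (Scd and Scd2 by its brightest probe). With 50 signal units added Scd2 differed by -3.25, Scd by -4.61 and Elovl5 by -0.45. The dimmer Elovl6 probe then differed by 0.34, in place of 1.05, and the middle Scd2 probe by -0.18, in place of -0.67. The brighter Elovl6 probe differed by 0.49, so that neither Elovl5 nor Elovl6 reached 1.5-fold in that setting. The median of the members was 0.53 to 0.64 when each gene was left out in turn. No paired analysis was possible because each group holds a single array. Signals near 3.83, the lowest detected value, limit the sizes given for the dimmer Elovl6 probe, the middle Scd2 probe, Elovl4 and Elovl7.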

Other observations

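Genes next to the desaturase loci were read to see whether differences ran along the chromosome. By RefSeq gene order, 6 protein-coding neighbours were taken on each side of the Scd3, Scd2, Scd4 and Scd cluster, and 8 of these 12 had a detected probe. Their differences ranged from -0.27 (Hif1an, an oxygen-sensing hydroxylase) to 0.42 (Pax2, a developmental transcription factor) in those detected on both arrays. Cwf19l1, detected in the EEP pool only, was at least 0.60 log2 units higher, the only one of the 8 that was at least 1.5-fold apart, and 0 were at least 2-fold apart, where 3.58% of all genes were higher and 5.09% lower by that much. Around the Fads3, Fads2 and Fads1 cluster 5 of 12 neighbours were read, from -0.33 (Incenp, a chromosomal passenger protein) to 0.09 (Myrf, a transcription factor of myelination). Fen1, the flap endonuclease beside Fads1, differed by -0.17, and the ferritin heavy chain gene Fth1 by 0.03, against 0.76 for Fads1 and 1.12 for Fads2. Fads3, with 8.26 in the EEP pool and 7.99 in the saline pool (0.26), lay between its family members and these neighbours.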
